A study of Mus musculus with 2 samples.

Results

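The AP-1 genes described here are Fos, Fosb, Fosl1, Fosl2, Jun, Junb, Jund and Atf3. They were taken as the rows of the authors' deposited tables whose gene name, in upper case there, equals FOS, FOSB, FOSL1, FOSL2, JUN, JUNB, JUND or ATF3, which gave 8 of 34376 gene rows, 10 promoter groups (transcripts that share their first exon) and 12 transcripts. The values come from 2 libraries of poly(A) RNA of E14 mouse embryonic stem (ES) cells, strain 129P2/OlaHsd, both at passage 29. The differentiated library came from a mixed population kept for 4.5 days on gelatin in 10% serum with 0.1 µM all-trans-retinoic acid, without the leukaemia inhibitory factor (LIF) supplement. The undifferentiated library came from cells grown in 15% serum with LIF on mitomycin C treated mouse embryonic fibroblasts. Per the labels' protocols, both cultures were dissociated with 0.25% trypsin before collection, and the undifferentiated cells were also put through 2 adsorption steps of 45 minutes each to remove the feeder fibroblasts. Dead cells were estimated at 8% in differentiated and 2% in undifferentiated cells, and leftover feeder cells at less than 0.25%.

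AP-1 is a family of transcription factors that bind DNA as dimers through a basic region and a leucine zipper. Jun proteins pair with each other or with Fos and ATF proteins, whereas Fos proteins need a Jun partner. Fos, Jun and several relatives are immediate early genes: serum, growth factors and stress switch them on within minutes, and the enzymatic dissociation of cells can do so too. Retinoic acid receptors are known for repressing AP-1 activity, and in F9 embryonal carcinoma cells, a mouse model of endoderm formation, Jun is low before and higher after differentiation with retinoic acid.

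Values are RPKM (reads scaled to the length of the gene model and to the read total of the lane), so that levels can be set side by side between genes. Each library was read on 2 lanes, and errors given as ± are SDs over these lanes. They cover sequencing and read assignment alone, since there is 1 library in each group and no replicate culture, so no test between the conditions exists. The steps in the values of single-exon genes implied about 33100000 and 32000000 reads in the differentiated lanes and 37800000 and 36200000 in the undifferentiated lanes. Marker genes, from lists chosen with earlier results of these data known, differed between the libraries. All 8 extraembryonic endoderm markers exceeded 2-fold in favour of the differentiated library (summed level 2975 and 3054 RPKM in the differentiated lanes, 36.9 and 36.4 RPKM in the undifferentiated lanes). Most of the differentiated sum came from Col4a1 and Lamb1-1, at means of 1755 and 843 RPKM. All 6 ES cell markers were lower in the differentiated library by 2-fold or more (58.2 and 52.6 RPKM in the differentiated lanes, 1626 and 1628 RPKM in the undifferentiated lanes). Of all genes at 1 RPKM or more in either library, 19.1% were higher and 8.48% lower by as much. In such a mixed bulk sample, more cells of a type and more RNA per cell cannot be told apart.

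Of the 8 AP-1 genes, 6 were higher by 2-fold or more in the differentiated library and none was lower by as much. Fos, Fosb, Fosl2, Jun, Jund and Atf3 made up the 6, and Junb and Fosl1 lay between. The comparison used the log2 of (differentiated RPKM + 1) over (undifferentiated RPKM + 1), here called the log2 ratio, among genes that reached 1 RPKM in either library (the floor), which all 8 members passed. Of 17899 genes at that floor, 19.1% were higher by 2-fold or more and 8.48% were lower by 2-fold or more. The median log2 ratio was 2.47 over the 8 members and 0.12 over all genes. Summed over the 8 genes, the level was 444 and 417 RPKM in the differentiated lanes, against 80.2 and 91.7 RPKM in the undifferentiated lanes.

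**Figure D1:**
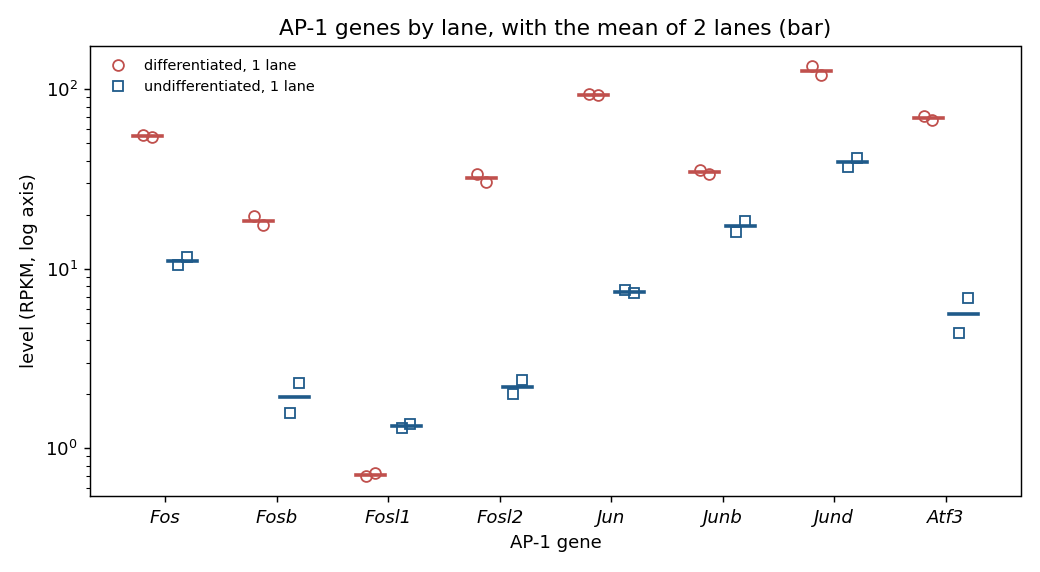
Level of each AP-1 gene (RPKM, log axis) in the 2 differentiated lanes (red circles) and the 2 undifferentiated lanes (blue squares), with the mean of the lanes as a bar. The differentiated lanes lie above the undifferentiated lanes for 7 of the 8 genes and below them for Fosl1. Lanes cover sequencing and read assignment alone, and the share of all genes whose lanes lie apart was not counted.

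The promoters of AP-1 genes are themselves known for AP-1 and CRE sites, which bind Jun and ATF proteins. The 250 bases before the RefSeq start site (build GRCm38.p6) were available for 7 of the 8 members, all but Fosl1. They were searched on both strands for the AP-1 site TGACTCA, for the 8-base CRE-like site TGACNTCA and for TGACGT, which a full CRE contains. The windows of Jun, Fos and Atf3 each held a match, shown in capitals, and are printed because they are the members with such letters. Each is given 5′ to 3′ on the strand of the gene. In Jun (chr4:95052223-95052472, minus strand) the match to TGACNTCA lies 45 to 38 bases before the start. In Fos (chr12:85473640-85473889, plus strand) TGACGT lies 66 to 61 bases before it, ahead of a TATAAA box at 33 to 28. In Atf3 (chr1:191183334-191183583, minus strand) TGACGT lies on the reverse strand, 8 to 3 bases before it.
Jun: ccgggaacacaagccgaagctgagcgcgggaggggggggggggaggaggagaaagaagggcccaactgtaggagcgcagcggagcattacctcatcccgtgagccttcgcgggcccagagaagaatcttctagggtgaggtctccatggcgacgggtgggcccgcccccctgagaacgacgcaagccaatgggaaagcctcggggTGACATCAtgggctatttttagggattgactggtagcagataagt
Fos: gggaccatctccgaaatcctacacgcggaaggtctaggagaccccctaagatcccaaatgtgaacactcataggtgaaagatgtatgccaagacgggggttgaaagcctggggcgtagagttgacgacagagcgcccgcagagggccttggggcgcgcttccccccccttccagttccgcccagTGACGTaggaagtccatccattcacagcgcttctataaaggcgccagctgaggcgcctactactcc
Atf3: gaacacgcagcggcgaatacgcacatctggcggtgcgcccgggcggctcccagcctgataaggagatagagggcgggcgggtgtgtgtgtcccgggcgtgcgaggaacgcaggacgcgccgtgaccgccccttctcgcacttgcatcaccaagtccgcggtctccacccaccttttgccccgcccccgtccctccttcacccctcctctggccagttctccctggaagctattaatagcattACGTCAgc
Within these 250 bases, none of the 7 windows held TGACTCA or a CArG box, the site of serum response factor. Bases farther upstream were not searched, so a site there would be missed. Fosb, Fosl2, Junb and Jund held none of the 3 searched AP-1 and CRE letters. Models of Jund are 2878 or 1668 bases long by annotation, so its window may not lie before the start in use. Of all 32851 windows of this length, 4.46% held TGACTCA, 7.49% TGACNTCA, 6.47% TGACGT and 1.47% a CArG box. A match describes letters alone, and Fosl2, among the 3 members with the largest log2 ratios, had none.

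Jun, the founding gene of the Jun family (mm9 chromosome 4, 94715725 to 94718913, minus strand), had the largest log2 ratio of the 8. With a pseudocount of 0.1 RPKM, or in lane 1 alone, it was not first. It stood at 94.0 and 92.8 RPKM in the differentiated lanes, against 7.57 and 7.32 RPKM in the undifferentiated lanes. The lanes of each library lay close together and far from those of the other. The mean level of 93.4 ± 0.819 RPKM was 12.5 times the undifferentiated mean of 7.44 ± 0.182 RPKM, a log2 ratio of 3.48 that exceeded those of 99.1% of genes at the floor. The table holds a pair of nested single-exon models of Jun, and the shorter one took 13.4% of the sum in the differentiated and 9.36% in the undifferentiated library. That share ranged from 4.74% to 14.1% between the undifferentiated lanes, so the split carries no direction. The start of Jun also overlaps 689 bases of an opposite-strand model at 1.40 RPKM in the differentiated and 0.269 RPKM in the undifferentiated library.

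Atf3, a stress-induced factor that pairs with Jun proteins and often represses as a homodimer (mm9 chromosome 1, 192994175 to 193007219, minus strand), followed closely. It stood at 70.8 and 67.2 RPKM in the differentiated lanes, against 4.36 and 6.83 RPKM in the undifferentiated lanes. The undifferentiated lanes differed more between themselves than for most members, but both stayed well below the differentiated ones. The means of 69.0 ± 2.54 and 5.6 ± 1.75 RPKM gave a log2 ratio of 3.41, with 3.74 and 3.12 in the separate lanes. The full-length model held 96.8% of the sum in the differentiated and 90.3% in the undifferentiated library, and the share of the short form again moved between lanes (4.05% and 13.4% in the undifferentiated lanes).

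Fosl2, which encodes Fra-2, a Fos protein without the strong activation domain of Fos (mm9 chromosome 5, 32438223 to 32460212, plus strand), had the largest ratio of the Fos family. It stood at 33.8 and 30.6 RPKM in the differentiated lanes, against 2.00 and 2.41 RPKM in the undifferentiated lanes. Its mean of 32.2 ± 2.29 RPKM was 14.6 times the undifferentiated mean of 2.21 ± 0.296 RPKM, the largest plain ratio of the 8 members, and its log2 ratio was 3.37. A second promoter group that starts 10671 bases downstream of the first held 1.29 RPKM in the differentiated and 0.0287 RPKM in the undifferentiated library, which is 4.01% and 1.30% of the gene's sum. The upstream promoter thus carried nearly all of the gene's level in both libraries. A row named Rpl7-ps7, whose span of 21104697 to 82766697 on the same strand encloses Fosl2, was at 321 and 554 RPKM.

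Fosb, a Fos protein gene whose shorter splice form is stable (mm9 chromosome 7, 19888045 to 19895394, minus strand), stood at 19.6 and 17.4 RPKM in the differentiated lanes. The undifferentiated lanes gave 1.57 and 2.31 RPKM. The groups did not overlap, and the log2 ratio of the means was 2.73, with 3.0 and 2.48 in the separate lanes. The tables hold a single model of Fosb, so its splice forms are not separated.

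Fos, the cellular counterpart of the viral oncogene (mm9 chromosome 12, 86814840 to 86818223, plus strand), stood at 55.5 and 54.3 RPKM in the differentiated lanes, against 10.5 and 11.6 RPKM in the undifferentiated lanes. Its means were 54.9 ± 0.791 RPKM in the differentiated and 11.1 ± 0.783 RPKM in the undifferentiated library, and the log2 ratio was 2.21. Fos was thus the most abundant Fos family gene in both libraries, but its ratio was the smallest of the 3 that were higher. A second promoter group, 801 bases inside the gene, made up 4.55% of the sum in the differentiated and 1.92% in the undifferentiated library. The share was 2.81% and 6.31% in the separate differentiated lanes.

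Fosl1, which encodes Fra-1, another Fos protein of growing and migrating cells (mm9 chromosome 19, 5447698 to 5455945, plus strand), differed in direction. It stood at 0.702 and 0.724 RPKM in the differentiated lanes, against 1.30 and 1.37 RPKM in the undifferentiated lanes. The differentiated lanes were both below the undifferentiated ones, at 0.534 of their mean. Its log2 ratio of -0.45 is within 2-fold on this scale. It was the least abundant member in both libraries, and its model overlaps 2783 bases of Ccdc85b on the opposite strand, at 9.02 RPKM in the differentiated and 9.95 RPKM in the undifferentiated library. The library kit does not keep the strand, so reads of such a pair cannot be told apart.

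Jund, the Jun family gene that most cells express steadily (mm9 chromosome 8, 73221638 to 73224515, plus strand), was the most abundant member in both libraries. It stood at 134 and 120.0 RPKM in the differentiated lanes, against 36.8 and 41.5 RPKM in the undifferentiated lanes. The log2 ratio of the means was 1.67. As a gene with 1 single-exon model in the table, its values could be turned back into about 12760 and 11061 reads in the differentiated lanes and 4003 and 4317 reads in the undifferentiated lanes. Relative to the lane totals this is a ratio of 3.25, with an exact 95% binomial interval of 3.17 to 3.33 that covers counting error only. The table's model of Jund is 2878 bases long, against 1668 bases in the GENCODE M21 annotation, so its level beside other genes depends on the model. It also contains 543 bases of the opposite-strand model Gm11175, at 66.2 RPKM in the differentiated and 14.8 RPKM in the undifferentiated library.

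Junb, a Jun protein that can oppose Jun in the control of growth (mm9 chromosome 8, 87500808 to 87502647, minus strand), stood at the edge of the 2-fold line. Its level was 35.7 and 33.6 RPKM in the differentiated lanes, against 16.1 and 18.4 RPKM in the undifferentiated lanes. The lanes did not overlap, yet the log2 ratio of 0.97 fell just short of 1, with 1.10 and 0.84 in the separate lanes. From about 2170 and 1978 reads in the differentiated and 1116 and 1221 reads in the undifferentiated lanes, the ratio relative to lane totals was 2.02, with a 95% interval of 1.92 to 2.12 for counting error only. The level in the differentiated library was thus about 2 times the undifferentiated one, and the call depends on the pseudocount and the lane.

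**Figure D2:**
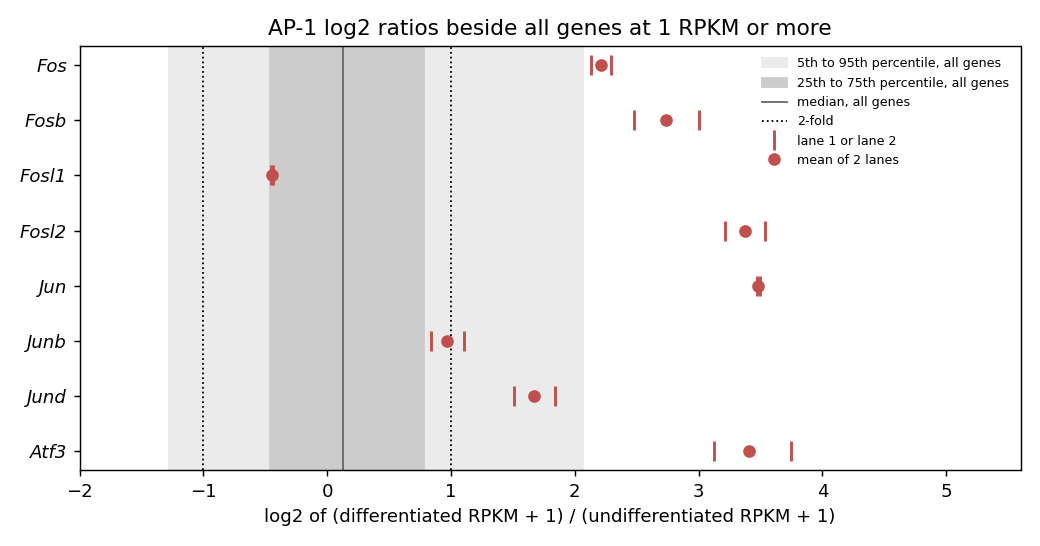
Log2 ratio of each AP-1 gene for the mean of the lanes (dot) and for each lane (tick), over the spread of the 17899 genes at 1 RPKM or more (grey bands, 5th to 95th and 25th to 75th percentile). Fos, Fosb, Fosl2, Jun and Atf3 lie above the 95th percentile of all genes (2.06), Junb touches the 2-fold line and Fosl1 lies below 0.

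The order of the levels differed between the libraries. In the differentiated library it ran from Jund through Jun, Atf3, Fos, Junb, Fosl2 and Fosb to Fosl1, and the lanes of neighbours overlapped only for Junb and Fosl2. In the undifferentiated library it ran from Jund through Junb, Fos, Jun, Atf3, Fosl2 and Fosb to Fosl1, and the lanes of neighbours overlapped only for Fosl2 and Fosb. Jun thus held place 2 in the differentiated and place 4 in the undifferentiated library, and Junb held place 5 and place 2.

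The make-up of both families differed between the libraries. Jun held 36.6% of the Jun family's summed RPKM in the differentiated library, against 11.7% in the undifferentiated library. Junb held 13.6% in the differentiated and 27.0% in the undifferentiated library, and Jund 49.8% and 61.4%. Within the Fos family, Fosl2 held 30.3% in the differentiated and 13.3% in the undifferentiated library, Fosb 17.4% and 11.7%, Fos 51.6% and 66.9%, and Fosl1 0.671% and 8.06%. For each of the 7 genes the lanes of the libraries gave shares that lay apart. Shares within a family add up to the whole, so these are not 7 separate results. Lanes do not cover the spread between cultures, and how often such shares lie apart in other families was not counted. The Fos family's sum was 106 RPKM in the differentiated and 16.6 RPKM in the undifferentiated library, a ratio of 6.42. The Jun family's sum was 255 RPKM in the differentiated and 63.8 RPKM in the undifferentiated library, a ratio of 4.0. Jun family RNA exceeded Fos family RNA 2.40 times in the differentiated and 3.85 times in the undifferentiated library. The level of Jund depends on its model, 2878 bases long here and 1668 in GENCODE M21. The Jun family's sums and shares, and its ratio to the Fos family, therefore depend on that model too.

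**Figure D3:**
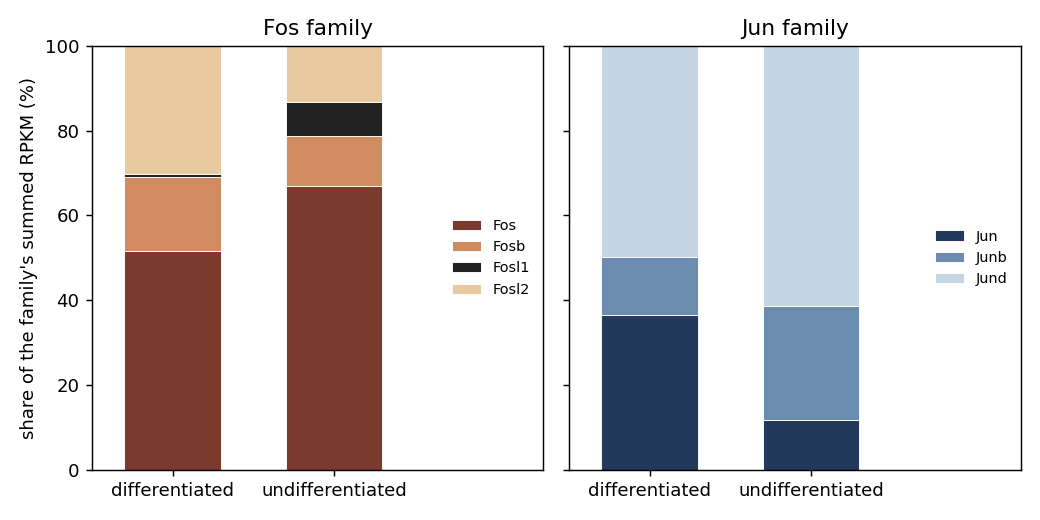
Share of each gene in the summed RPKM of the Fos family (left) and the Jun family (right), in percent, in the differentiated and the undifferentiated library. Jun takes 36.6% of its family in the differentiated and 11.7% in the undifferentiated library, and Fosl2 takes 30.3% and 13.3% of its own.

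Genes of other bZIP proteins, some of which can pair with the members, lay mostly within 2-fold or above it. Of 23 listed genes 19 reached the floor, of which 8 passed 2-fold upward, 1 passed it downward and 10 stayed within it (median log2 ratio 0.86). This is 42.1% higher and 5.26% lower, against 19.1% and 8.48% of all genes. Mafk, a small Maf protein without an activation domain, stood at 22.6 ± 0.863 RPKM in the differentiated and 3.72 ± 0.201 RPKM in the undifferentiated library (log2 ratio 2.32). Jdp2, a repressor that pairs with Jun, stood at 6.11 ± 0.294 and 1.06 ± 0.290 RPKM (1.79). Ddit3, the stress factor CHOP, stood at 30.2 ± 4.07 and 8.08 ± 2.01 RPKM (1.78). The lower gene, named after its values were seen, was Atf1, at 38.2 RPKM in the differentiated and 86.8 RPKM in the undifferentiated library (-1.16).

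Most kinases that lead to AP-1 stayed within 2-fold. Of 18 genes in the JNK, ERK and p38 routes at the floor, 3 passed 2-fold upward, none downward and 15 stayed within it (median log2 ratio 0.18). The higher share of 16.7% is near the 19.1% of all genes. Rps6ka3, the ERK-activated kinase RSK2, stood at 32.9 ± 3.23 RPKM in the differentiated and 7.28 ± 0.246 RPKM in the undifferentiated library (2.03). Map3k1, which acts above JNK, stood at 17.2 ± 0.631 and 4.10 ± 0.805 RPKM (1.84), and Map3k5 at 6.25 ± 2.20 and 2.22 ± 1.05 RPKM (1.17). Among genes named after their values were seen, the JNK genes Mapk8 and Mapk9 had log2 ratios of 0.56 and 0.10.

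Serum response factor and its partners switch on Fos. Of the 13 genes of this list, which also holds AP-1 cofactors and turnover factors, 3 passed 2-fold upward, none downward and 10 stayed within it (median log2 ratio 0.08). The higher share of 23.1% is near the 19.1% of all genes. Mkl1 and Mkl2, actin-sensing partners of serum response factor, stood at 12.7 ± 0.201 RPKM in the differentiated and 2.95 ± 0.0762 RPKM in the undifferentiated library (1.79), and at 9.97 ± 0.231 and 2.70 ± 0.0585 RPKM (1.57). Elk3, an Ets-family partner, stood at 5.43 ± 0.876 and 1.09 ± 0.315 RPKM (1.62). Srf itself, named after its values were seen, stood at 51.7 and 50.1 RPKM (0.04).

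Other immediate early genes were mixed. Of 40 at the floor, 18 passed 2-fold upward, 3 passed it downward and 19 stayed within it (median log2 ratio 0.84). This is 45% higher and 7.5% lower, against 19.1% and 8.48% of all genes. Gadd45g, a growth arrest gene, stood at 32.5 ± 2.86 RPKM in the differentiated and 1.56 ± 0.00739 RPKM in the undifferentiated library (3.71). Cyr61, a secreted matrix protein gene that serum induces, stood at 225 ± 1.33 and 20.5 ± 1.53 RPKM (3.39). Klf2, which is also part of the ES cell network, stood at 3.58 ± 0.0386 and 114 ± 1.62 RPKM (-4.65). The genes that follow were named after their values were seen. Egr1, a zinc finger factor induced together with Fos, was higher (36.3 RPKM in the differentiated and 9.16 RPKM in the undifferentiated library, 1.88). Besides Klf2, the lower genes were Arc (1.94 RPKM in the differentiated and 10.8 RPKM in the undifferentiated library) and Sik1 (15.4 and 36.3 RPKM). Within 2-fold, Egr3 lay on the higher side (0.80), and Ier2 and Nr4a1 lay on the lower side (-0.72 and -0.58). Egr1 thus does not stand for the list.

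Heat shock and other genes reported to go up when tissue is taken apart by enzymes mostly stayed within 2-fold. Of 16 at the floor, 4 passed 2-fold upward, 1 passed it downward and 11 stayed within it (median log2 ratio 0.19). The shares of 25% higher and 6.25% lower are near the 19.1% and 8.48% of all genes. Their summed level was 17270 and 13224 RPKM in the differentiated lanes and 11702 and 13574 RPKM in the undifferentiated lanes, so the lanes of the groups overlapped. Hspa1a and Hspa1b, near-identical copies of inducible Hsp70 whose reads cannot be fully separated, stood at 61.0 ± 0.922 RPKM in the differentiated and 9.22 ± 0.116 RPKM in the undifferentiated library (2.60), and at 58.1 ± 1.81 and 13.8 ± 0.588 RPKM (1.99). Dnajb4, an Hsp70 partner, stood at 11.5 ± 0.767 and 2.16 ± 0.559 RPKM (1.98). The lower gene, named after its values were seen, was Hsp90aa1 (532 RPKM in the differentiated and 1424 RPKM in the undifferentiated library, -1.42). Both cultures were dissociated with trypsin. The part of dissociation, of the adsorption steps of the undifferentiated cells and of the 8% and 2% dead cells in the AP-1 levels was not tested, and serum, LIF and retinoic acid differ together with the groups and cannot be told apart.

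Textbook AP-1 targets lay on both sides. Of 22 at the floor, 9 passed 2-fold upward, 5 passed it downward and 8 stayed within it (median log2 ratio 0.49). The shares were 40.9% higher and 22.7% lower, against 19.1% and 8.48% of all genes. Tpm1, a tropomyosin gene, stood at 885 ± 5.42 RPKM in the differentiated and 39.8 ± 2.77 RPKM in the undifferentiated library (4.44). Mmp14, a membrane-bound matrix protease, stood at 33.7 ± 1.54 and 4.35 ± 0.415 RPKM (2.70). Spp1, osteopontin, stood at 16.02 ± 1.26 and 261 ± 12.1 RPKM (-3.94). The collagenase and stromelysin genes Mmp13 and Mmp3, named after their values were seen, were at 0 and 0.120 RPKM in the differentiated library, and at 0.196 and 1.79 RPKM in the undifferentiated library.

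**Figure D4:**
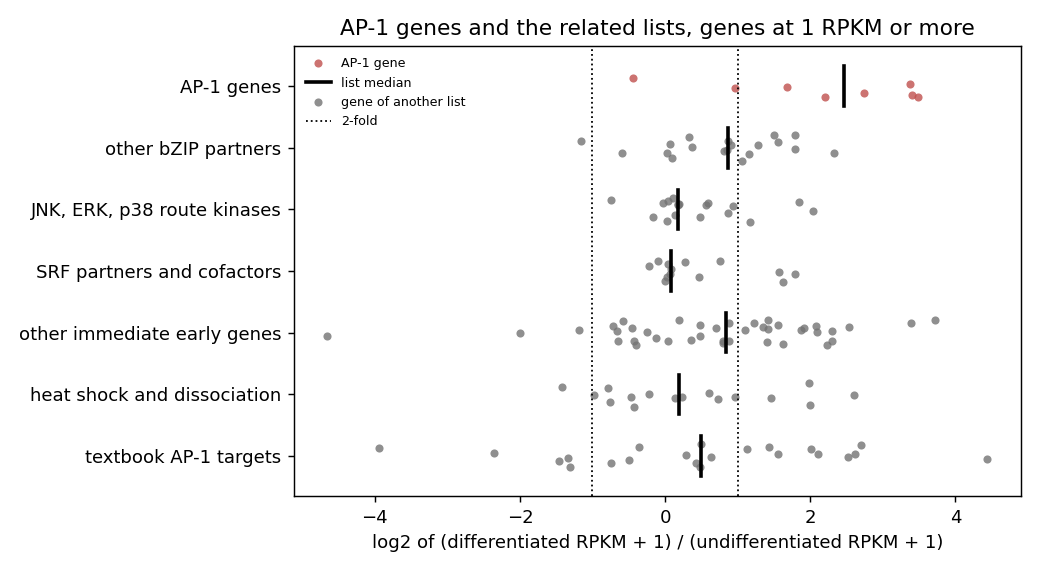
Log2 ratio of each gene at 1 RPKM or more in the AP-1 group (red) and in 6 related lists (grey), with the list median as a bar and dotted lines at 2-fold. The AP-1 median is 2.47, and the medians of the other lists run from 0.08 for the list of serum response factor, its partners, cofactors and turnover factors to 0.86 for the list of other bZIP genes.

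Markers of fibroblasts, the feeder cells of the undifferentiated culture, were split between higher genes and genes within 2-fold. Of 9 markers at the floor, 5 passed 2-fold upward (55.6%, against 19.1% of all genes), none downward (8.48% of all genes) and 4 stayed within it. Their summed level was 277 and 276 RPKM in the differentiated lanes and 51.8 and 52.6 RPKM in the undifferentiated lanes. Col1a1 stood at 133 ± 0.791 RPKM in the differentiated and 12.3 ± 1.41 RPKM in the undifferentiated library, Col3a1 at 36.4 ± 2.56 and 3.61 ± 0.0866 RPKM, and Col1a2 at 48.6 ± 3.56 and 6.69 ± 1.90 RPKM. Among markers named after their values were seen, Thy1, S100a4 and Postn were on the lower side within 2-fold, with log2 ratios of -0.50, -0.48 and -0.49, and Lum stood at 0.0530 RPKM in the differentiated and 0.0921 RPKM in the undifferentiated library. No marker of the list was at 0 in either library. The part of fibroblasts and of endoderm cells in the AP-1 levels was not tested.

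The genes with a pattern nearest to Jun, the member with the largest log2 ratio, were found by Euclidean distance in log2(RPKM + 1) over the 4 lanes among 17891 other genes at the floor. They were P4ha1 (101 RPKM in the differentiated and 7.42 RPKM in the undifferentiated library, distance 0.284), B2m (99.4 and 8.60 RPKM, 0.333) and Anxa5 (85.7 and 8.75 RPKM, 0.349). With 2 libraries such a pattern is a pair of levels.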

How the data were processed

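RNA was sequenced as 36 bp single-end reads on 2 lanes for each of 2 samples, per the labels' protocols. The authors deposited RPKM values for genes, promoters and transcripts, with each lane and the mean of the lanes. The tables name no unit, which was read from the values: in single-exon genes, 82.0% to 82.3% of low values times length fell within 5% of a read of a whole number of reads. Build mm9 is given per the submitters' processing notes. The sources used here do not name the aligner, the counter, the annotation or the handling of reads with several matches. Start positions were raised by 1 so that the first base counts as 1.

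Of rows with the same symbol the one with the highest mean was kept, which left 34126 symbols. Ratios were computed with Python 3.11.15 and pandas 2.3.3 as log2 with a pseudocount of 1 RPKM, and genes were called at 2-fold among those at 1 RPKM or more in either library. The code was tested on simulated data. A count test was not run, since RPKM are not counts and there is 1 library in each group. The members and lists were chosen with earlier results of these data known. Named genes are the 8 members, the 3 genes with the largest absolute log2 ratio in every further list, and the 3 genes nearest to the leading member. Any other gene is said to be named after its values were seen. Promoter sequences are RefSeq's, build GRCm38.p6. Alternatives covered pseudocount, floor, scaling and lanes.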

Additional observations from a re-analysis of the deposited data

How the results depend on the processing

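No paired analysis was possible because each group holds 1 library. No direction of a member's log2 ratio turned under the 13 alternatives, and their ranges were 2.98 to 3.73 for Jun, 2.80 to 3.74 for Atf3, 2.37 to 3.81 for Fosl2, 1.76 to 3.19 for Fosb, 1.90 to 2.45 for Fos, 1.5 to 1.92 for Jund, 0.80 to 1.21 for Junb and -0.82 to -0.15 for Fosl1, which drops out at a floor of 5 RPKM. Only the scalings and the single lanes could turn a direction. Pseudocount, floor, fold and the summing of rows leave the sign of a member's log2 ratio unchanged by construction. The member with the largest log2 ratio changed with the setting. Fosl2 exceeded Jun with a pseudocount of 0.1 (3.81 against 3.63). In lane 1, Atf3 (3.74) and Fosl2 (3.54) both exceeded Jun (3.47). Junb crossed 2-fold with a pseudocount of 0.1 (1.00), with equal RPKM sums (1.21) and in lane 1 (1.10). It also passed a fold of 1.5 at its value of 0.97, and Jund missed a fold of 4 at 1.67; both folds were chosen after seeing the data. The median log2 ratio of all genes was 0.12 as deposited, 0 after median centring, -0.02 after trimmed-mean scaling, 0.02 after scaling to the upper quartile and 0.33 when RPKM sums were made equal, so that ratios of that size carry no direction. Genes higher numbered 3 of the other bZIP genes and 1 of the serum response factor list with a pseudocount of 5, where 9.12% of all genes were higher, and 5 of the kinases with equal RPKM sums (24.7%). At a fold of 1.5 (31.6%) there were 6 kinases and 7 heat shock genes. At a fold of 4 (5.45%) there were 1 other bZIP gene, 1 kinase, 0 of the serum response factor list, 8 immediate early genes and 1 heat shock gene. These changes follow from the settings' own construction. With 1 library in each group, the spread between cultures is unknown.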
